A study of Mus musculus with 10 samples.

Results

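The 38 genes described here are members of the mouse Hox family, grouped by their genomic cluster (A, B, C or D) and by the number in their name. They were taken from a list by name, not by any measured value, out of 31053 genes in the count matrices. Clusters A and B gave 10 genes each and clusters C and D 9 genes each. By number, 11 genes were placed in an anterior block (numbers 1 to 4), 11 in a central block (5 to 8) and 16 in a posterior block (9 to 13). In GRCm38 (mm10) cluster A lies on chromosome 6, cluster B on chromosome 11, cluster C on chromosome 15 and cluster D on chromosome 2.

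Hox genes encode homeodomain transcription factors that give cells a position along the head-to-tail axis. In each cluster the low-numbered genes at one end are used in anterior structures and the high-numbered genes at the other end in posterior ones, and the gut epithelium keeps part of this address in adult life. Polycomb complexes, whose enzyme EZH2 methylates histones, hold Hox clusters silent where they are not used, with PBX and MEIS proteins acting as DNA-binding partners of Hox proteins.

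The data were 10 single-cell RNA-sequencing libraries that count unique molecular identifiers (UMIs, 1 per captured molecule) at the 3′ end of polyadenylated RNA. Of these, 8 libraries came from organoids of mouse proximal small-intestinal crypts, and 2 were freshly isolated colonic crypts. ENR-organoids (3 libraries, passages 2, 7 and 3) grew with R-Spondin 1, Noggin and EGF. Hyper-organoids (3 libraries, passages 1, 6 and 3) grew with LDN193189, GSK-3 Inhibitor XV, Pexmetinib, EGF, R-Spondin 1 conditioned medium, bFGF, the histone deacetylase inhibitor VPA and the EZH2 inhibitor EPZ6438. For -VE-organoids (2 libraries, passages 1 and 6) the Hyper medium was used without VPA and EPZ6438. The Hyper and -VE media thus differ in these compounds, and the Hyper and ENR media in most components. Hyper replicates 1 and 2 and both -VE libraries were started from ENR-organoids. Hyper replicate 3 and ENR replicate 3 were started from primary crypts. No -VE library has that origin, so Hyper against -VE, with all 3 Hyper libraries, also differs in origin. Crypts from normal mice and from mice given dextran sulfate sodium (DSS), which injures the colonic epithelium, gave 1 library each. Mice for crypt isolation and culture were between 6 and 12 weeks old, and those of the colitis model were females aged 8 weeks. The strain behind each library was not given in the sources used here, where C57BL/6 and Lgr5 reporter mice are both listed. Replicate numbers follow the first character of the library names (2, 6 and C), which is taken here as a culture series. The labels do not say what this character stands for. Nothing in them ties a library to an animal, so p-values below measure the spread between libraries, which may be technical.

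The organoid libraries held 1983 to 4293 kept cells and 89124015 to 170019527 UMIs. The colonic libraries held 1132 and 1933 kept cells with 19906845 and 32397122 UMIs. Of 25124 distinct kept barcodes, 79 occurred in more than 1 library, and no pair of libraries shared more than 5. Markers of the labelled organs were checked first. Gata4, a transcription factor of the proximal small intestine, lay at 35.5 to 51.9 UMIs per 1000000 UMIs of a library (CPM, the unit of every level below) in organoids and at 0.201 and 0.185 in normal and DSS colon. Defa30 and Lct of the same list had 0 UMIs in colon, whereas its member Fabp6, a bile acid binding protein, was at 0.0563 to 2.02 in organoids and at 39.03 and 21.4 in colon. Car1, a colonocyte carbonic anhydrase, went the other way, at 0.0206 in ENR replicate 1 and 0 in the other 7 organoid libraries against 6054 and 4933 in colon. Aqp8 was likewise at or under 2.16 in organoids and at 121 and 115 in colon, and Muc4 was similar in both, at 16.5 to 24.9 and at 24.97 and 30.0. Levels carry no correction for differences in capture between genes, so the level of a gene is compared between libraries. Block shares and weighted mean gene numbers below combine the genes of a library as counted.

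ENR-organoids held few Hox transcripts, and these came mostly from the anterior ends of clusters A and B. Summed over the 38 genes the level was 8.71, 7.06 and 11.7 CPM in ENR replicates 1, 2 and 3. Anterior genes made up 58.4 to 85.5% of these UMIs. The -VE libraries were at 11.5 and 6.03, one inside and one just under the ENR range. Hyper-organoids reached 22.4, 51.9 and 70.4 in replicates 1, 2 and 3, and every Hyper library lay above every ENR and -VE library. Normal and DSS colonic crypts held 323 and 389, of which posterior genes made up 72.6 and 69.0%. The colonic libraries have no replicate and were not tested. Their exact Poisson 95% intervals for the total were 315 to 331 and 382 to 396, which cover counting error only.

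**Figure D1:**
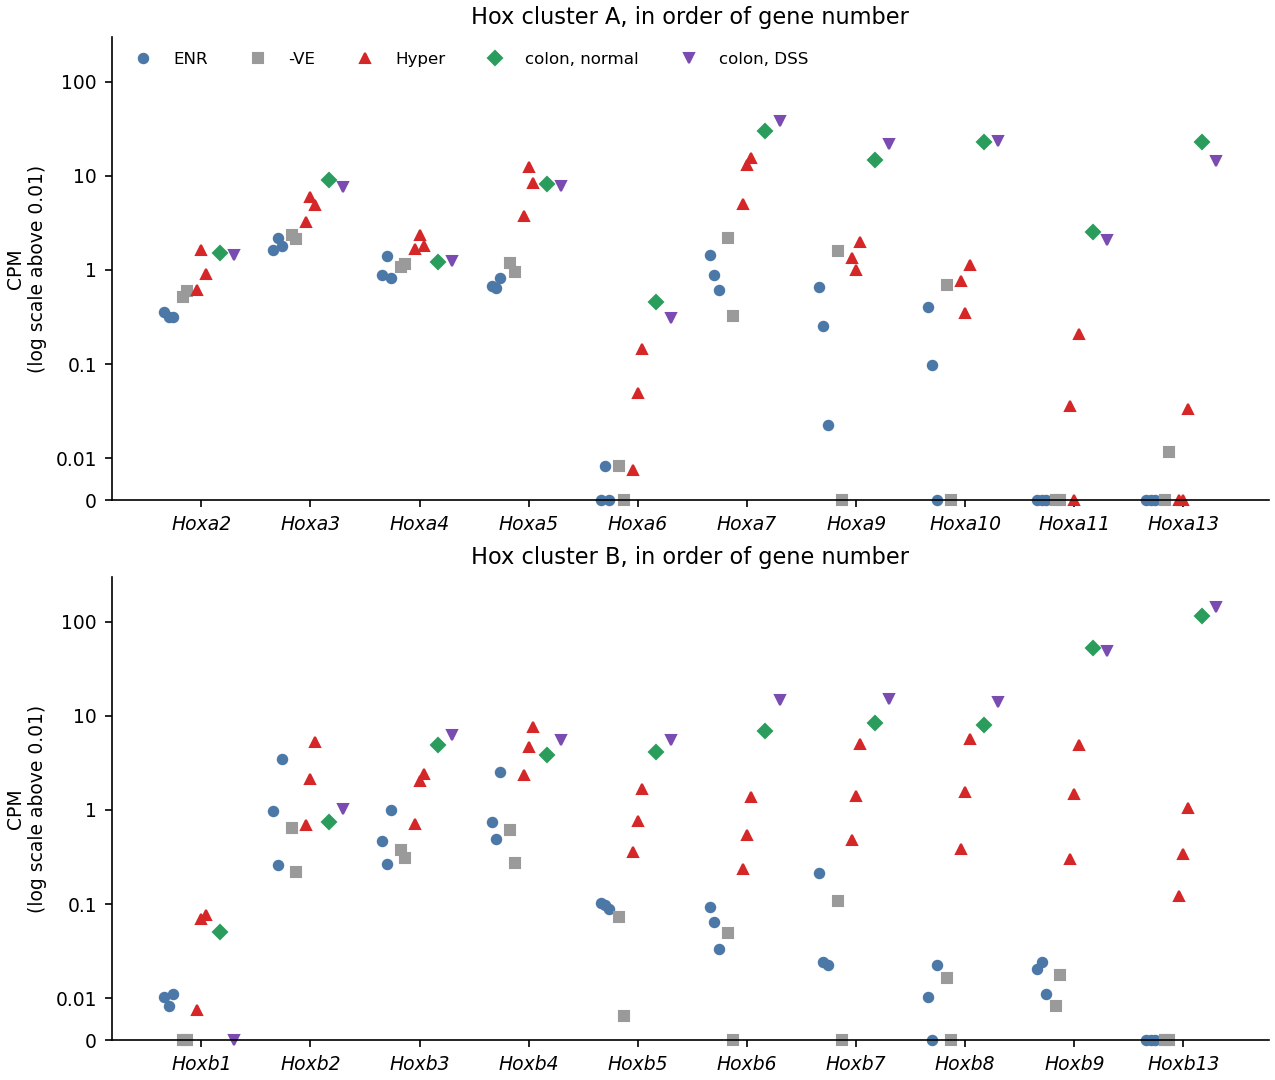
Level of each Hox gene of clusters A and B (CPM, logarithmic above 0.01 and linear below) in order of gene number, with 1 point per library. Hyper-organoids (red triangles) lie above all ENR libraries at Hoxa5, Hoxa7 and from Hoxb5 to Hoxb13, while at Hoxa13 and Hoxb13 they stay far below the colonic libraries (green and purple).

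The 3 blocks moved by different amounts. The anterior block was 6.67 ± 2.86 in ENR (SD, n = 3), 5.14 ± 0.62 in -VE (n = 2) and 17.1 ± 7.09 in Hyper (n = 3). The central block was 1.97 ± 0.49, 2.47 ± 1.68 and 26.1 ± 14.1 in the same order. The posterior block was 0.512 ± 0.528, 1.18 ± 1.60 and 5.02 ± 3.73. Within culture series 2, 6 and C the Hyper level of the anterior block was 1.82, 3.83 and 2.31 times that of ENR. For the central block the ratios were 4.15, 17.2 and 23.2. The posterior ratios were 2.37, 8.11 and 166, the last of them against 5 UMIs in ENR replicate 3. In series 2 the posterior level was 2.31 in -VE replicate 1 beside 2.58 in Hyper replicate 1. In series 6 it was 0.0471 in -VE replicate 2 beside 3.17 in Hyper replicate 2.

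**Figure D2:**
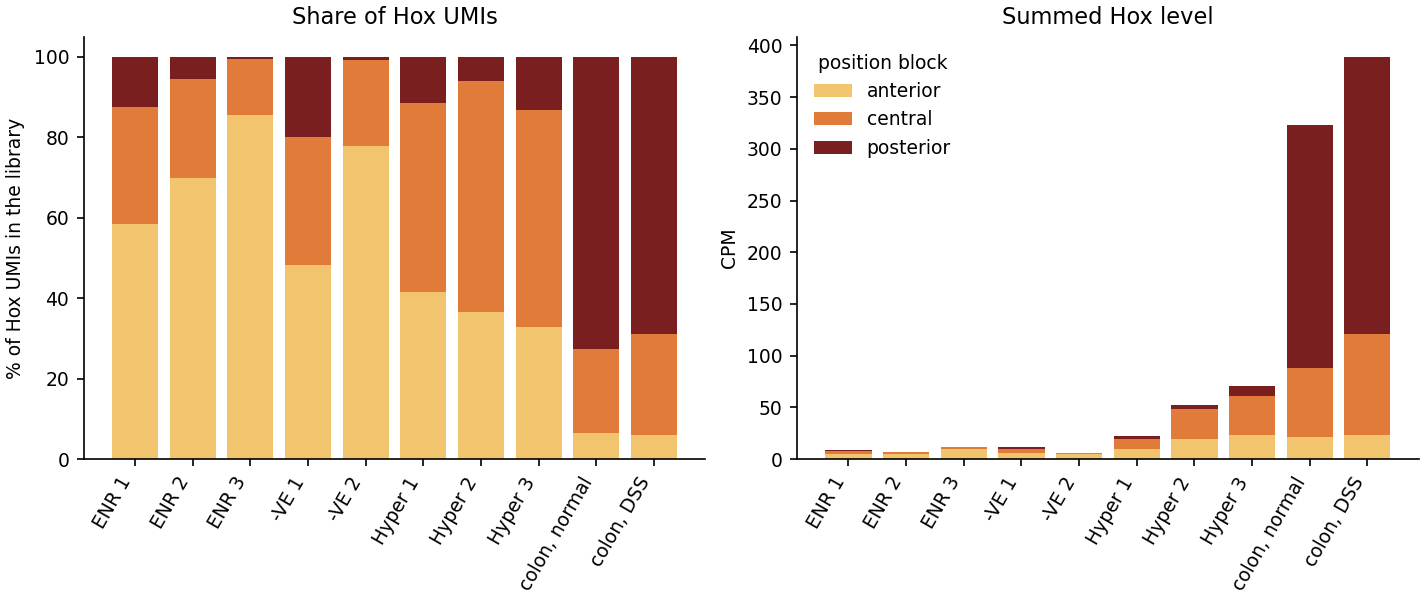
Share of Hox UMIs (left, percent) and summed Hox level (right, CPM) by position block in each of the 10 libraries. Anterior genes take 58.4 to 85.5% in ENR, central genes 47.0 to 57.5% in Hyper, and posterior genes 72.6 and 69.0% in normal and DSS colon.

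Of the 38 genes, 35 had at least 1 UMI in an organoid library and 17 had enough counts to be tested with edgeR's quasi-likelihood test across all genes. Calls required a change of at least 2-fold and, after Benjamini-Hochberg adjustment, a p under 0.05. In Hyper against ENR, 12 of the 17 were called higher and 0 lower, where 18.2% of all 16037 tested genes were called higher. Hyper against -VE gave 10 higher and 0 lower, against 16.1% of all genes. Both comparisons use the same Hyper libraries, so they are not independent, and 9 genes were called in both, which is 75% of the first set and 90% of the second. In -VE against ENR, 0 genes were called by edgeR or by DESeq2 and 0 had an unadjusted p under 0.05, against 1.35% of all genes called higher and 1.2% called lower. The filter asked for a level of 0.0817 CPM in at least 2 libraries, and 5 of the 17 genes (Hoxb6, Hoxb8, Hoxb9, Hoxb13 and Hoxd8) reached it only through Hyper. Such genes had to differ to be tested and add nothing to the counts as evidence. Of the other 12, 7 were called higher against ENR and 6 against -VE, where 13.3 and 11.5% of all genes that reached the filter without Hyper were called higher. This split was made after the values were seen.

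Within culture series, 16 of the 17 tested genes were higher in Hyper than in ENR in all 3 series, where 48.7% of all tested genes were, and 16 of 17 were higher than in -VE in both series that have a -VE library (55.1% of all). The exceptions were Hoxb2 against ENR and Hoxa9 against -VE, and these tallies and the next include the 5 genes that had to differ. Every Hyper library lay above every ENR library for 13 of the 17 tested genes (40% of all tested genes), and above both -VE libraries for 15 (43.8%). One library decided much of the second comparison. Without -VE replicate 2, which had the lowest summed Hox level, 4 genes were called instead of 10, namely Hoxa5, Hoxb5, Hoxb8 and Hoxb9, of which Hoxb8 and Hoxb9 had to differ. The 6 genes that lost their call kept log2 fold changes of 2.06 to 8.76, in a fit with 1 -VE library left. The median log2 fold change of the tested Hox genes was 2.65 there and 3.05 with all libraries. It was 6.12 when -VE replicate 1 was left out instead, with folds fitted against 0 UMIs among them. These 2 fits tested 19 Hox genes each. Why calls were lost was not tested. Markers of stromal cells, which use Hox genes themselves, rose with the Hyper libraries although they stayed low. The 7-gene stromal list summed to 0.0673 to 0.0895 in ENR, 0.0765 to 0.107 in -VE and 0.576 to 0.838 in Hyper, mostly Col1a1 and Pdgfra, with Col3a1 and Lum at or under 0.0211 in every organoid library. Without cells that held a Ptprc UMI (an immune marker) or a stromal marker UMI, 11 genes were called against ENR and 10 against -VE.

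In cluster B the size of the difference varied between genes. Hoxb2, a hindbrain patterning gene, was at 0.987, 0.260 and 3.44 in ENR replicates 1 to 3, 0.640 and 0.218 in -VE, and 0.686, 2.12 and 5.31 in Hyper. These groups overlapped, and the log2 fold change against ENR was 0.65 (SE 0.96, adjusted p = 0.591). It turned to -0.30 without Hyper replicate 3. For Hoxb4, known for expanding blood stem cells, ENR had 0.741, 0.488 and 2.56, -VE 0.607 and 0.271, and Hyper 2.33, 4.71 and 7.64. ENR replicate 3 exceeded Hyper replicate 1, so these groups overlapped as well. Hoxb4 was called against ENR (log2 fold change 1.82, SE 0.68, adjusted p = 0.04996), at the edge of the threshold, and against -VE (3.36, SE 0.87, adjusted p = 0.0138). Without the cells with immune or stromal markers the log2 fold change against ENR was about as large (1.80) and the call is lost (adjusted p = 0.0511), as it is without any 1 of 6 of the 8 libraries (0.0599 to 0.152 by edgeR), all but Hyper replicate 1 and ENR replicate 3. Against -VE it is lost without -VE replicate 2 (adjusted p = 0.107). Hoxb3, its neighbour, was 1.45 higher on the log2 scale (adjusted p = 0.0574) and 2.19 higher against -VE (adjusted p = 0.028), a call that is lost without -VE replicate 1 or 2 or without Hyper replicate 2 or 3. With the culture series as a replicate block the value for Hoxb3 against ENR was 1.51 (adjusted p = 0.0231).

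The levels of the central genes of cluster B did not overlap between Hyper and the other media. Hoxb5, expressed in enteric neural crest among other tissues, was at 0.103, 0.0976 and 0.0898 in ENR, 0.0739 and 0.00588 in -VE, and 0.361, 0.760 and 1.68 in Hyper. No organoid value of ENR or -VE reached the lowest Hyper value. The log2 fold changes were 3.12 (SE 0.72, adjusted p = 0.00617) against ENR and 4.51 (SE 0.93, adjusted p = 0.00521) against -VE. Hoxb6, tested only through its Hyper counts, gave 3.32 and 4.84 (adjusted p = 0.0108 and 0.00928), and Hoxb7 4.61 and 5.42 (adjusted p = 0.0127 and 0.0206). ENR replicate 1 held the highest ENR values of both, 0.0926 for Hoxb6 and 0.216 for Hoxb7, and these stayed below the lowest Hyper values of 0.238 and 0.477. The call of Hoxb7 against ENR is lost without ENR replicate 2 (adjusted p = 0.0511). Hoxb6 and Hoxb7 lose their calls against -VE without -VE replicate 2 (0.0597 and 0.114 by edgeR).

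Hoxb8 and Hoxb9 went from almost no transcripts to readily detected ones. Hoxb8, which can hold blood progenitors in an immature state when overexpressed, had 1, 0 and 2 UMIs in ENR replicates 1 to 3, 2 and 0 in -VE, and 53, 221 and 511 in Hyper. Over the pooled libraries this was a ratio of 218 to ENR (exact 95% interval 74.4 to 1060, counting error only) and of 309 to -VE (85.2 to 2554). The edgeR test called it in both (adjusted p = 0.00169 and 0.00455). Hoxb8 and Hoxb9 were tested only through their Hyper counts and so had to differ, and their calls add nothing as evidence. Hoxb9 had 2, 3 and 1 UMIs in ENR, 1 and 3 in -VE, and 42, 209 and 438 in Hyper, with log2 fold changes of 6.64 (SE 1.17, adjusted p = 0.00164) and 7.10 (SE 1.41, adjusted p = 0.00427).

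Hoxb13, the most posterior gene of the cluster and one that marks the distal gut and the prostate, had 0 UMIs in all 5 ENR and -VE libraries and 17, 49 and 94 in Hyper replicates 1, 2 and 3. Against a floor of 3 UMIs over the group it was at least 44.5-fold higher than in ENR and at least 42.0-fold higher than in -VE. Hoxb13 too was tested only through its Hyper counts and so had to differ. It was called in both comparisons (adjusted p = 0.0106 and 0.0189), and the call against -VE is lost when either -VE library is left out (0.0575 and 0.082 by edgeR). The Hyper levels of 0.123, 0.345 and 1.04 remained far below those of colonic crypts, 116 (interval 111 to 120.4) in the normal and 141 (137 to 146) in the DSS library.

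Among the 5 genes of cluster B that reached the filter without Hyper, the fitted log2 fold change against ENR was larger at each higher gene number, at 0.65, 1.45, 1.82, 3.12 and 4.61 for Hoxb2, Hoxb3, Hoxb4, Hoxb5 and Hoxb7. Against -VE the values were 2.53, 2.19, 3.36, 4.51 and 5.42 in the same order. These genes share libraries, and their order carries no test. The mean gene number of cluster B, weighted by level, was 2.95 to 3.68 in ENR, 3.21 and 3.44 in -VE, 4.77 to 5.78 in Hyper, and 10.7 and 10.5 in normal and DSS colon. For cluster A it was 4.08 to 5.37 in ENR, 5.71 and 3.74 in -VE replicates 1 and 2, and 5.34 to 5.91 in Hyper, so the media overlapped, with 8.59 and 8.27 in colon.

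**Figure D3:**
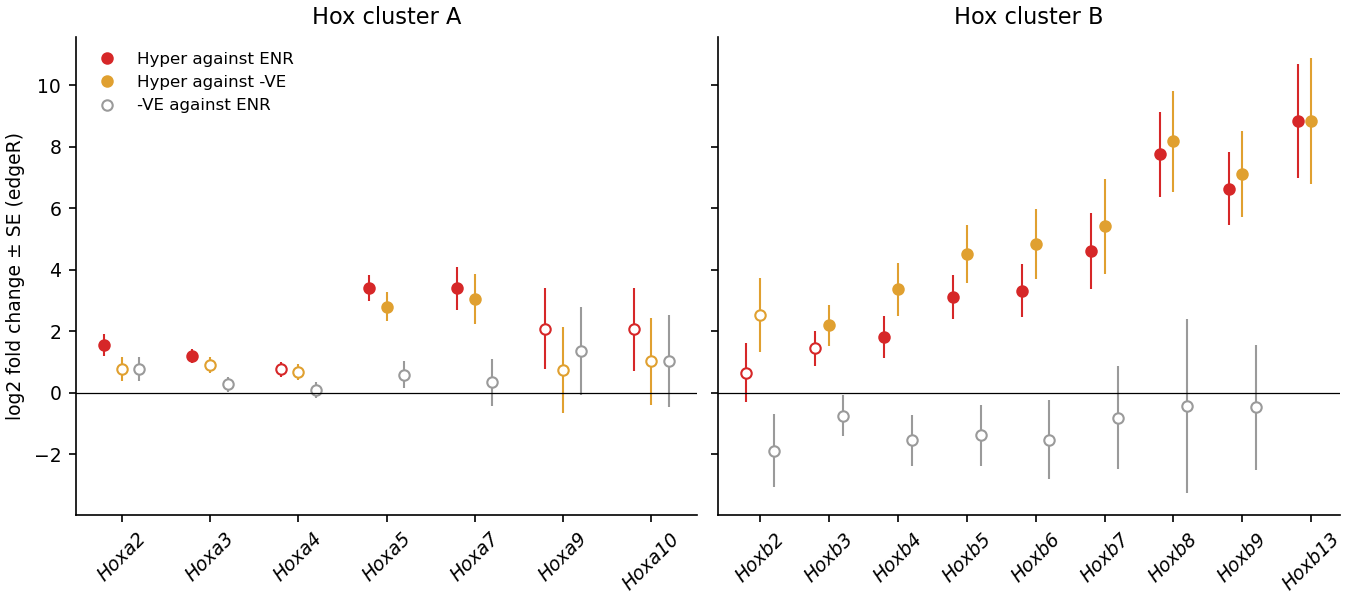
Log2 fold change from edgeR for the tested genes of clusters A and B in order of gene number, with filled symbols where a gene was called. Bars show the standard error, computed from the fold change and the F statistic of the test. In cluster A the largest called values are those of Hoxa5 and Hoxa7. In cluster B, Hoxb6, Hoxb8, Hoxb9 and Hoxb13 were tested only through Hyper, and the fitted value of Hoxb13 depends on the prior count and is no bound.

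Cluster A changed most in its middle. Hoxa5, which shapes lung and gut during development, was at 0.669, 0.643 and 0.830 in ENR, 1.20 and 0.947 in -VE, and 3.73, 12.5 and 8.33 in Hyper. Hyper replicates 2 and 3 reached the colonic levels of 8.14 (normal) and 7.84 (DSS), and no library of another medium came near the lowest Hyper value. The log2 fold change was 3.39 (SE 0.42, adjusted p = 0.000258) against ENR and 2.80 (SE 0.47, adjusted p = 0.0021) against -VE. Hoxa7, a central gene of trunk identity, had 1.43, 0.887 and 0.617 in ENR, 2.17 and 0.323 in -VE, and 5.08, 13.01 and 15.4 in Hyper. It was called against ENR (3.39, SE 0.70, adjusted p = 0.0037) and -VE (3.05, SE 0.81, adjusted p = 0.0152, and 0.0527 without -VE replicate 2), with colon at 30.2 and 38.3. The intervening Hoxa6 had 1 UMI in ENR, 1 in -VE and 21 in Hyper over the pooled libraries, a ratio of 17.5 to ENR (exact 95% interval 2.82 to 724). Hyper replicates 1 to 3 held 1, 7 and 13 of these UMIs, and the gene was too low to test.

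The anterior genes of cluster A were present in all media. Hoxa2, a patterning gene of the hindbrain and the second pharyngeal arch, was at 0.314 to 0.360 in ENR, 0.517 and 0.600 in -VE, and 0.606, 1.64 and 0.908 in Hyper. Its log2 fold change was 1.54 against ENR (SE 0.36, adjusted p = 0.00657) and 0.78 against -VE (SE 0.39, adjusted p = 0.135). Hoxa3, needed for thymus and parathyroid, was at 1.64, 2.18 and 1.82 in ENR, 2.36 and 2.16 in -VE, and 3.22, 5.97 and 4.87 in Hyper, with no overlap. It was called against ENR (1.19, SE 0.23, adjusted p = 0.0027) and passed the p threshold but not the 2-fold one against -VE (0.92, adjusted p = 0.0205). The call against ENR is lost without Hyper replicate 2. Hoxa4 passed the p threshold against ENR at less than 2-fold (0.77, adjusted p = 0.0249). Hoxa2 and Hoxa3 share 15.04 and 8.01% of their exonic bases with Gm28308 on the same strand, and how reads there were counted was not stated.

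Posterior genes of cluster A varied between libraries of one medium. Hoxa9, a regulator of blood progenitors, was at 0.658, 0.252 and 0.0224 in ENR, 1.58 and 0 in -VE, and 1.34, 0.992 and 1.96 in Hyper. Hoxa10, known for patterning the uterus, was at 0.401, 0.0976 and 0 in ENR, 0.690 and 0 in -VE, and 0.773, 0.352 and 1.14 in Hyper. Hyper replicate 3 held the highest organoid values of both. In series 2, -VE replicate 1 lay above Hyper replicate 1 for Hoxa9 and just below it for Hoxa10. Neither was called (adjusted p = 0.209 and 0.222 against ENR, 0.693 and 0.585 against -VE), and without -VE replicate 2 the log2 fold changes against -VE were -0.28 and -0.01. Without -VE replicate 1 both genes were called against the remaining -VE library, which held 0 UMIs of them (adjusted p = 0.0198 and 0.0454). Hoxa11 had 5, 0 and 19 UMIs in Hyper replicates 1 to 3 and 0 in ENR and -VE. The pooled 24 UMIs were at least 6.67-fold above the ENR floor and came mostly from Hyper replicate 3. Hoxa13, which patterns digits and hindgut, had 2 UMIs in -VE replicate 2, 3 in Hyper replicate 3 and 0 in the other 6 organoid libraries.

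These few Hoxa9 and Hoxa10 transcripts came from a small set of cells. In ENR replicate 1, 39 of 2189 cells (1.78%) held a UMI of either gene, and 71.8% of those cells also held Hoxa7, against 1.77% of the other cells. The -VE library of the same series had 95 such cells (3.97%), with Hoxa7 in 77.9% of them and in 1.96% of the rest. The shares of Hoxa7 were 70.6 and 1.93% in ENR replicate 2, where 17 cells qualified, and -VE replicate 2 had 0 such cells of 4293. Hyper libraries had 118, 82 and 101 cells, with Hoxa7 in 66.9, 84.1 and 79.2% of them and in 10.99, 25.8 and 29.9% of the other cells. Their median depth was 58804 against 46296 UMIs in the other cells of ENR replicate 1 and 53545 against 50515 in -VE replicate 1, but 45690 against 47892 in ENR replicate 2, and the part of depth was not tested. Of the 95 cells in -VE replicate 1, 47 (49.5%) were classed as transit amplifying and 35 (36.8%) as stem. Among the other cells these classes made up 49.1 and 27.8%. The Gata4 level of the 95 cells, 43.1, lay beside 42.3 in the other cells.

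Cluster D was nearly silent in organoids and cluster C in all libraries. Hoxd8 had 0 UMIs in ENR and -VE and 27, 2 and 40 in Hyper, at least 19.2-fold above the ENR and 18.1-fold above the -VE floor. Hoxd8 was tested only through its Hyper counts and so had to differ. It was called against ENR (adjusted p = 0.0396), though not when any 1 ENR library was left out (0.0682 to 0.0787 by edgeR), and not against -VE (adjusted p = 0.058, or 0.0227 with the replicate block). The other 8 genes of cluster D had at most 5 UMIs in any organoid library. Cluster C summed to at most 0.0505 in organoids and to 0.151 and 0.0617 in normal and DSS colon, or 3 and 2 UMIs. Hoxc11 and Hoxc12 had 0 UMIs in all 10 libraries. Counted by medium, 14 of the 38 genes were at 0 in ENR, 15 in -VE and 8 in Hyper. A count of 0 allows a level of up to 0.00970, 0.0103 and 0.00809, in turn, from 3 counts over the group. Hoxd3 shares 62.3% of its exonic bases with Hoxd4 or Gm28230 on the same strand, and Hoxd4 52.3% with Hoxd3 or Gm28230. How reads there were counted was not stated.

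Promoters of 22 of the 38 genes (24 promoters, 250 bases before to 50 after the start) were found in RefSeq (GRCm38.p6). The 3 below are shown for a central gene of cluster A and a central gene of cluster B that rose in Hyper-organoids, and for Hoxc4, the 1 gene of cluster C whose promoter was found, with between 0 and 2 UMIs in each library. They run 5′ to 3′ along the gene's own strand, with CG dinucleotides in capitals, the sites of DNA methylation. Hoxa5 lies at chr6:52204538-52204837 (minus strand), Hoxb8 at chr11:96281655-96281954 (plus strand) and Hoxc4 at chr15:103034145-103034444 (plus strand).
Hoxa5: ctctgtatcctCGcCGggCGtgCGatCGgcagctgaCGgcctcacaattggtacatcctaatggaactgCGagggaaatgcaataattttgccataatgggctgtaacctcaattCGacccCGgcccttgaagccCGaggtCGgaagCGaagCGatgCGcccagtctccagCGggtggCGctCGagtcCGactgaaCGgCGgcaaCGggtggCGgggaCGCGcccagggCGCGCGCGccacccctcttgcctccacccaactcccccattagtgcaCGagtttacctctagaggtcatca
Hoxb8: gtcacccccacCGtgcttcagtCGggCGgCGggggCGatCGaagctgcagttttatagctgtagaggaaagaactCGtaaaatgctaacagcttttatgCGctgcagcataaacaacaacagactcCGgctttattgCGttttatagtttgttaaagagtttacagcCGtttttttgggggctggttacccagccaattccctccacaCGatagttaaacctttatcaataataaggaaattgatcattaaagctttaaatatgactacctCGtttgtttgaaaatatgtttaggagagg
Hoxc4: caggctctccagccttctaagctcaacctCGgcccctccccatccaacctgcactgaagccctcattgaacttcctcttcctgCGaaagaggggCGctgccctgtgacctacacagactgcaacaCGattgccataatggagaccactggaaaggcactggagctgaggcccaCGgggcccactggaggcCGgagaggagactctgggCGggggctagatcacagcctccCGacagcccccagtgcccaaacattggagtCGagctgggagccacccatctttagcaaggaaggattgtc

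The Hoxa5 promoter holds 29 CG dinucleotides, that of Hoxb8 13 and that of Hoxc4 9, against a median of 7 over all 32851 promoters of this length and 14.5 over the 24 Hox promoters. The letters TTTATG, the core bound by caudal (CDX) factors, were searched on both strands. They were found in 5 of the 24 Hox promoters (20.8%), those of Hoxa7, Hoxb8, Hoxd3, Hoxd4 and Hoxd11, and in 11.9% of all promoters. This is a description of the letters only, and methylation or binding was not measured here.

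Single cells showed the same order of media at equal depth. After each cell was thinned to 10000 UMIs, 7.14, 6.62 and 9.80% of ENR cells held any Hox UMI, 9.09 and 5.33% of -VE cells, and 18.8, 36.5 and 44.3% of Hyper cells. Every Hyper library lay above all 5 others. Without thinning the shares were 18.7, 20.4 and 25.04% in ENR, 27.2 and 17.4% in -VE, and 46.9, 70.7 and 76.6% in Hyper. Thinned colonic cells held a Hox UMI in 92.3% (exact 95% interval 90.0 to 94.2%) and 91.2% (89.4 to 92.8%) of cells, after 458 and 840 shallower cells were left out, and in 73.5 and 70.9% unthinned. Hoxb13 alone was found in 43.3 and 43.7% of thinned colonic cells, in 0.0728, 0.492 and 0.856% of Hyper cells and in 0% of ENR and -VE cells.

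Some neighbouring genes were found in the same cells more often than the product of their shares gives. In Hyper replicates 1, 2 and 3, 7, 61 and 139 cells held both Hoxb8 and Hoxb9, where the product gave 0.458, 6.16 and 30.1. For Hoxb7 and Hoxb8 the numbers were 16, 68 and 158 cells against 0.693, 6.08 and 36.2. For Hoxa7 and Hoxb8, of different clusters, 10, 66 and 140 cells held both against 5.20, 41.8 and 85.9. Within cluster A, 97, 408 and 226 cells held both Hoxa5 and Hoxa7, against 54.7, 324 and 177. In Hyper replicate 2, Hoxa5 and Hoxa7 were found in 1193 and 956 of 3523 cells, and Hoxb7 and Hoxb8 in 139 and 154. The largest proportion that an excess can reach falls as genes are found in more cells, so the pairs cannot be ranked by it. Hoxb9 and Hoxb13 were found together in 0, 1 and 37 cells against 0.141, 1.60 and 6.58. In Hyper replicate 1, cells with Hoxb8 had a median of 50382 UMIs against 48017 in the others, and cells with Hoxb7 58232.5 against 47935. The part of depth or of cell class in these numbers was not tested.

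The same comparisons were made within cell classes, which are the authors' annotation of each kept cell. In stem cells 11 of 16 tested Hox genes were called higher in Hyper against ENR (15.2% of all genes) and 11 against -VE (14.7%). In transit amplifying cells 11 of 17 were called in each comparison (17.2 and 15.5% of all genes). Goblet cells gave 7 and 6 of 8 (10.7 and 8.72%), and enteroendocrine cells 4 and 2 of 8 (5.96 and 3.52%). Many of these genes were tested in the class only through Hyper and so had to differ, 8 in stem, 7 in transit amplifying, 7 in goblet and 4 in enteroendocrine cells. Of the rest, 6 of 8 in stem cells were called against ENR (9.74% of all genes that reached the filter without Hyper) and 4 against -VE (8.95%). In transit amplifying cells 4 of 10 were called in each comparison (11.3 and 9.78%). In goblet cells the 1 such gene was called against ENR (5.51%) and not against -VE (3.85%), and in enteroendocrine cells 1 of 4 was called in each (3.51 and 1.96%). These counts changed with single libraries. Against -VE, the counts in stem, transit amplifying and goblet cells were lowest without -VE replicate 2, a fit with 1 -VE library left. Their ranges are given in the closing section, and the reason was not tested. Against ENR, the calls fell to 4 in stem cells without ENR replicate 1 or 2, and to 7 and 6 without Hyper replicate 2 and 3. In transit amplifying cells they fell to 7 without Hyper replicate 3. The count of goblet cells against ENR was 1 without Hyper replicate 3 and 2 to 4 without Hyper replicate 2 or any ENR library. Enteroendocrine cells had 1 or 2 calls against ENR without any 1 ENR library or Hyper replicate 3, and 1 call against -VE without either -VE library. Goblet cells had 2 or 3 calls against -VE without -VE replicate 1, Hyper replicate 2 or Hyper replicate 3. Without either of these Hyper libraries only 4 Hox genes were tested in goblet cells, not 8.

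Hoxa5 in stem cells went from 0.564 ± 0.153 in ENR (SD, n = 3) and 0.940 ± 0.0855 in -VE (n = 2) to 8.81 ± 4.64 in Hyper (n = 3). In transit amplifying cells the values were 0.708 ± 0.224, 1.00 ± 0.0697 and 7.83 ± 4.22. Hoxb8 had 0 UMIs in ENR and -VE stem cells and 351 in Hyper stem cells.

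Enteroendocrine cells, the hormone-secreting lineage, stood apart from the other classes in every medium. Among classes with at least 20 cells, they had the highest summed Hox level in all 8 organoid libraries, 51.0 to 238 CPM within the class, against 6.23 to 73.7 in the next class. Classes were built from these cells' genes, so this comparison is a description without a test. The difference came from anterior and central genes. Anterior genes summed to 43.6 to 126 against 4.71 to 31.7 in the next class, whereas posterior genes were highest in enteroendocrine cells in 2 of 8 libraries. In ENR enteroendocrine cells Hoxb4 was at 20.7 ± 3.52 and Hoxb3 at 18.0 ± 1.63, when stem cells of the same libraries had 0.883 ± 1.05 and 0.270 ± 0.342.

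Among enteroendocrine cells Hoxb3 was at 18.7 ± 1.60 in -VE and 19.2 ± 4.68 in Hyper, a log2 fold change of 0.15 against ENR (SE 0.23, adjusted p = 0.734). Hoxb4 was at 14.6 ± 1.71 in -VE and 43.2 ± 19.4 in Hyper and was called in both comparisons (1.11, SE 0.30, adjusted p = 0.0308 against ENR, and 1.53, SE 0.35, adjusted p = 0.0258 against -VE). Hoxb5 was called in both as well (2.56 and 5.01, adjusted p = 0.0106 and 0.00531). Hoxa7 (3.20, adjusted p = 0.0117) and Hoxb8 (4.64, adjusted p = 0.0262) were called against ENR, with adjusted p = 0.0502 and 0.0865 against -VE. Hoxb5, Hoxa7 and Hoxb8 were tested in this class only through Hyper.

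**Figure D4:**
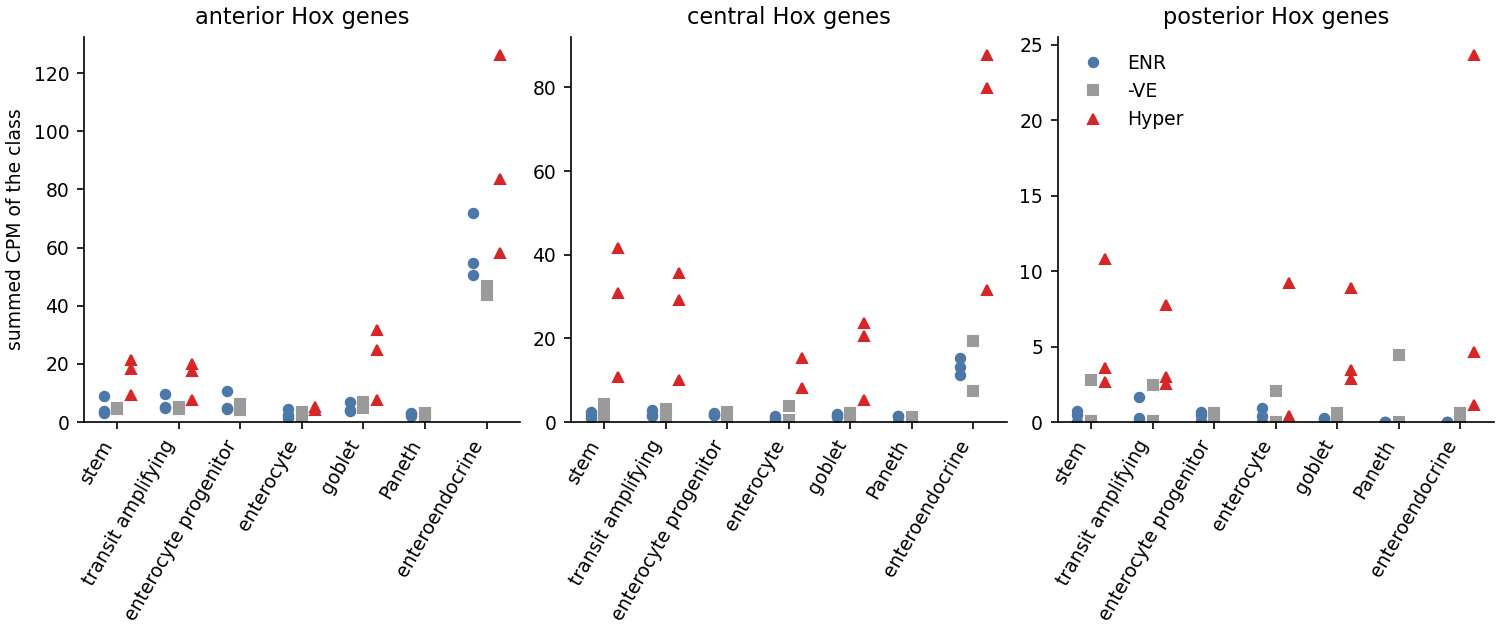
Summed level of anterior, central and posterior Hox genes (CPM within the class) by cell class, with 1 point per organoid library that had at least 20 cells of the class. Enteroendocrine cells have the highest anterior level in all 8 libraries (43.6 to 126). Hyper libraries (red triangles) lie above ENR in the central genes of every class plotted for both media. These are stem, transit amplifying, goblet and enteroendocrine cells and enterocytes.

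Colonic crypts carried the posterior part of clusters A, B and D. Relative to the organoids, Hoxa9 and Hoxa10 were at 14.7 and 22.9 in normal and at 22.04 and 23.4 in DSS crypts, and Hoxa13 at 22.8 (interval 20.8 to 25) and 14.3 (13.02 to 15.7). Hoxb9 was at 52.5 and 48.2. With 1 library each, differences between normal and DSS crypts could not be tested against replicates. Hoxb6 was at 6.98 (5.87 to 8.24) in the normal and 14.7 (13.4 to 16.1) in the DSS library, with Hoxb7 at 8.34 and 15 and Hoxb8 at 7.99 and 14.2. Cluster D summed to 4.27 and 18.3, the largest ratio between the crypts among clusters A, B and D, Hoxd13, a digit and hindgut gene, being at 2.46 (1.82 to 3.25) in normal and 9.38 (8.36 to 10.5) in DSS crypts and Hoxd11 at 0.904 and 4.72. Some anterior genes were no higher than in Hyper-organoids. Hoxb4 was at 3.87 and 5.53 in colon against 2.33 to 7.64 in Hyper, and Hoxa4 at 1.21 and 1.23 against 1.66 to 2.38.

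The 2 colonic libraries also differed in their content of other cells. Of the 25 clusters into which the authors divided the colonic cells, 6 had a Ptprc UMI in over 50% of their cells and held 219 normal and 445 DSS cells. Their Hoxb13 level was 0 to 16.2. The stromal list summed to 22.2 in normal and 60.1 in DSS crypts. Without the 6 clusters the posterior block was at 244 in normal and 283.6 in DSS crypts, beside 235 and 268 in all kept cells.

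Colonic clusters with few Ptprc-positive cells differed in their levels of Hoxb6, a central gene, and Hoxb13, a posterior one. Clusters were made from the cells' own transcripts, so their levels are described and not tested. Clusters 1 and 6, of 302 and 221 cells from both libraries, had Hoxb6 at 31.2 (27.5 to 35.4) and 16.3 (12.9 to 20.3) and Hoxb13 at 3.52 (2.34 to 5.09) and 2.68 (1.43 to 4.58). Clusters 3, 12 and 14 held almost only cells of normal crypts and had Hoxb13 at 186, 325 and 164, with Hoxb6 at or under 0.826. Clusters 4, 7 and 10 held mostly DSS cells and had Hoxb13 at 316, 422 and 383, with Hoxb6 at or under 0.695. The posterior gene Hoxb9 did not divide them in this way. It was at 77.9 and 53.6 in clusters 1 and 6, and at 20.5 to 60.4 in clusters 3, 4, 7, 10, 12 and 14. Cluster 9, with 108 of its 110 cells from DSS crypts, had Hoxb13 at 32.0 and Hoxb6 at 3.12. Others had higher Hoxb6 together with Hoxb13. Cluster 2, which the authors named stem, had Hoxb6 at 31.8 and Hoxb13 at 28.4, and clusters 5 and 13, of 233 and 90 cells, had Hoxb6 at 7.39 and 7.93 and Hoxb13 at 128 and 107. These pool both libraries, and in normal and DSS cells Hoxb13 was at 43.5 and 17.5 in cluster 2, at 43.1 and 170.03 in cluster 5 and at 89.9 and 122 in cluster 13. Hoxb6 was at 22.3 and 35.2 in normal and DSS cells of cluster 1, at 20.3 and 39.97 in cluster 2 and at 8.75 and 19.6 in cluster 6. Over single cells of normal crypts, 8 held both Hoxb6 and Hoxb13 where the product of their shares gave 38.9, and in DSS crypts 24 where it gave 98.4.

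Hoxd13 was at 20.7 (16.9 to 24.9), 27.8 (21.4 to 35.5) and 21.9 (16.8 to 28.0) in clusters 4, 7 and 10, against 0.496, 0 and 3.30 in clusters 3, 12 and 14 and 2.34 (0.860 to 5.10) in cluster 9. The few normal-crypt cells in clusters 4, 7 and 10 (11, 8 and 6 cells) held it too, with 6, 12 and 7 UMIs, or 26.2, 101 and 43.6 CPM, beside 20.4, 23.8 and 20.6 in the DSS cells of the same clusters. Hoxa13 did not divide them in this way, at 21.2, 40.9 and 37.9 in the first 3 and 46.1, 37.9 and 24.2 in the others. In DSS crypts 67 cells held both Hoxd11 and Hoxd13, where the product gave 6.85. Cluster 16, of 59 cells from both libraries with Chgb at 24181 and Chga at 14371 (granins of hormone-secreting cells), had the highest summed Hox level among colonic clusters, 1162. It combined Hoxb6 at 31.8, Hoxb8 at 109, Hoxb9 at 236 and Hoxb13 at 288, where the Hoxb6 value rests on 1 UMI in normal and 13 in DSS cells.

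**Figure D5:**
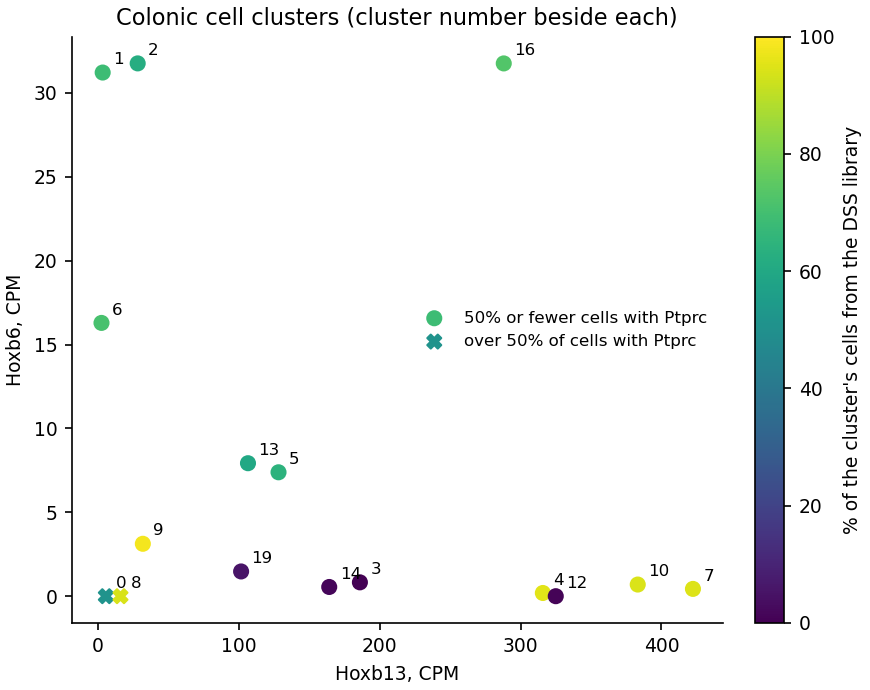
Level of Hoxb6 against Hoxb13 (CPM within the cluster) for the colonic clusters with at least 400000 UMIs, coloured by the share of cells from the DSS library. Clusters 1, 2 and 6 are high in Hoxb6, and clusters 3, 4, 7, 10, 12 and 14 are high in Hoxb13 with Hoxb6 under 1. Clusters 5 and 13 hold both at middle levels, and cluster 16 is high in both. Cluster 9 has Hoxb13 close to that of cluster 2 (32.0 and 28.4) and Hoxb6 at 3.12.

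Among partners and regulators of the Hox genes, the TALE cofactors changed in part. Of 8 tested, 4 were called higher in each comparison and 0 lower, beside 18.2 and 16.1% of all tested genes called higher against ENR and -VE. Meis1, which binds DNA with Hox proteins, was at 0.0514 to 0.0651 in ENR, 0.0176 and 0.0657 in -VE, and 1.08, 2.99 and 2.24 in Hyper (log2 fold changes 5.03 and 5.58, adjusted p = 0.000106 and 0.000353). It was tested only through its Hyper counts and so had to differ, unlike the other 3. Meis3 was at 0.237 to 0.258 in ENR, 0.287 and 0.312 in -VE, and 7.95, 8.76 and 7.97 in Hyper (4.91 and 4.64, adjusted p = 2.65e-07 and 2.42e-06). Pbx3 and Pbx4, partners in the same complexes, were 1.17 and 1.60 higher against ENR on the log2 scale. Meis2 was not called (1.55, adjusted p = 0.0529 against ENR).

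The caudal genes, which activate posterior Hox genes in the embryo, belong to the ParaHox group. Of 3 tested genes of this group, 0 were called higher and 1 lower against ENR, and 0 were called against -VE. Of all 16037 tested genes, 3675 were called in either direction against ENR, 2913 of them higher, and 2985 against -VE. Cdx1 was at 158 ± 15.3 in ENR, 121 ± 5.06 in -VE and 86.1 ± 4.75 in Hyper (log2 fold change against ENR -1.0015, at the edge of the 2-fold threshold, adjusted p = 1.58e-05). Cdx2 was at 116 ± 2.78, 105 ± 0.598 and 122 ± 14.9 (-0.05, adjusted p = 0.68). Of 19 genes of the Polycomb and trithorax complexes, 2 were called higher against ENR and 1 against -VE, with 0 lower, beside 18.2 and 16.1% of all tested genes called higher. Bmi1, a Polycomb subunit, was 1.24 and 1.15 higher on the log2 scale, and Cbx2 was the other gene called against ENR (1.10).

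Noncoding RNAs transcribed within the clusters were called as well. Of 5 tested, 4 were higher in both comparisons, beside 18.2 and 16.1% of all tested genes. Among these 4, Hoxb5os and Hoxd3os1 had at most 1 UMI in any ENR library and were tested through their Hyper counts, so they had to differ. Hotairm1, from the anterior end of cluster A, was at 0.337 to 0.618 in ENR, 0.406 and 0.410 in -VE and 1.93, 4.29 and 3.74 in Hyper (log2 fold changes 2.76 and 2.89). Hoxaas3 changed by 2.84 and 2.83, and Hoxb5os by 3.29 and 2.71. Hottip, beside Hoxa13, had 1 UMI in all organoid libraries together and was at 6.58 and 3.95 in normal and DSS colon. Of 17 tested genes that flank the clusters, 4 were called higher against ENR and 3 against -VE, a share near that of all tested genes (18.2 and 16.1%), with a median log2 fold change over the 17 of -0.00 and -0.04. Evx1, next to Hoxa13, and Skap1, next to Hoxb1, were among these and were tested only through their Hyper counts. Jazf1 changed by 3.64 and 3.42 on the log2 scale. In -VE against ENR 0 genes of these lists were called.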

How the data were processed

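The authors aligned the reads to mm10 and counted them with Cell Ranger (3.0.0 in the submitters' processing notes, 3.1.0 in the matrix headers), kept and annotated cells with Seurat 3.1.4, and deposited UMI counts per gene and barcode, not normalized, with 1 matrix per library. No intronic or overlap rule of the counting was stated. Here UMIs of the 25204 cells that the authors kept were summed per gene and library, since the library and not the cell is the replicate. Levels (CPM) are these sums per 1000000 UMIs of the library, or of the class or cluster. All 8 organoid libraries entered 1 fit in edgeR 4.0.16 under R 4.3.3 (TMM, filterByExpr, quasi-likelihood test, two-sided), with Benjamini-Hochberg adjustment over all 16037 tested genes. Fits within a class, with libraries or cells left out, or with the block were separate. Each was adjusted over the genes tested in it, such as 11050 in enteroendocrine cells. Every adjusted p in the text is from this edgeR test unless another is named. Each SE of a log2 fold change was computed here as its absolute value divided by the square root of the test's F statistic. The script was tested on simulated data. Depth ranged from 89124015 to 170019527 UMIs per organoid library and from 19906845 to 32397122 per colonic library. Exact Poisson and binomial (Clopper-Pearson) 95% intervals cover counting error only. A fold against a group at 0 uses a floor of 3 counts over the group.

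All 38 genes are named by membership, and lists of cofactors, caudal genes, noncoding RNAs, flanking genes and Polycomb and trithorax genes were set by name. The members and lists were chosen with earlier results of these data known. One gene of the family is not reported here. The symbol Hoxd4 occurs with 2 identifiers, of which the second had 6 UMIs in all and was not used. The number of unmapped columns of sample values was 0. Doublets were not removed beyond the authors' own filter. A deposited merged table of the kept cells' counts was not used, because the library matrices hold the same kind of counts for all genes.

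Culture series, as read from the library names, were taken to pair the libraries. Over 16037 genes, deviations of Hyper and ENR libraries of the same series from their group means correlated at 0.192, 0.17 and 0.436 (series 2, 6 and C), which met the rule of over 0.1 in every pair. Hyper replicate 1 and ENR replicate 2, of different series, also passed this rule, at 0.129. For Hyper and -VE the 2 pairs gave 0.139 and 0.115. With 2 -VE libraries the deviations mirror each other, so the crossed pairs gave -0.139 and -0.115. The fit behind the reported calls has no block. With the series as a replicate block 13 Hox genes were called against ENR and 11 against -VE. Alternatives covered normalization, the gene filter, DESeq2 1.42.0, the block, the cells used and each library left out in turn. Exons were taken from GENCODE on GRCm38 and promoters from RefSeq (GRCm38.p6).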

Additional observations from a re-analysis of the deposited data

How the results depend on the processing

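The counts of Hox genes called kept within 1.5 times of the reported 12 (against ENR), 10 (against -VE) and 0 (-VE against ENR) under another normalization, no gene filter, DESeq2, every barcode, the removal of cells with immune or stromal markers and the replicate block. The block gave 13 and 11, and changed single calls only for Hoxb3 against ENR and Hoxd8 against -VE, which were gained. Counting only genes that reached the filter without Hyper, a choice added after seeing the data, gave 7 and 6. Leaving out 1 library gave 10 to 12 against ENR, 4 to 12 against -VE and 0 in -VE against ENR. Within classes these ranges were 4 to 12 and 2 to 12 (stem, against ENR and -VE), 7 to 12 and 3 to 12 (transit amplifying), 1 to 7 and 1 to 6 (goblet), and 1 to 5 and 1 to 3 (enteroendocrine). DESeq2 called 4 genes in goblet cells against ENR. Without a gene filter 7 and 9 genes were called in enteroendocrine cells, where more genes are tested. Where 1 library remained in -VE, the fit took its spread from the other groups. Directions turned for Hoxb2 against ENR without Hyper replicate 3 (log2 range over libraries left out -0.30 to 2.04) and for Hoxa9 and Hoxa10 against -VE without -VE replicate 2 (-0.28 to 10.37 and -0.0073 to 9.44, the upper ends being fits against a lone library at 0 and no bounds). Of the other single-gene folds under an alternative, 431 kept their direction and side of the threshold, 16 gained and 22 lost it. The cause was not tested for any of these.

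With 1 library left out, block levels in CPM ranged from 5.02 to 7.53 (anterior), 1.69 to 2.13 (central) and 0.223 to 0.74 (posterior) in ENR, from 4.70 to 5.58, 1.28 to 3.65 and 0.0471 to 2.31 in -VE, and from 14.1 to 21, 20.2 to 33.9 and 2.88 to 6.24 in Hyper. Levels were not recomputed under the changes of gene filter, normalization, test or block, which do not enter them. In colonic crypts every barcode gave 18.6 (anterior), 55.5 (central) and 205 (posterior) in normal and 226.6 (posterior) in DSS crypts. Without clusters over 50% Ptprc, posterior levels were 244 and 283.6 and the central DSS level 102.8. Without cells with immune or stromal markers these were 243.4, 278 and 102.3. Unthinned shares of cells with a Hox UMI were 18.7, 20.4 and 25.04% in ENR, 27.2 and 17.4% in -VE, 46.9, 70.7 and 76.6% in Hyper, and 73.5 and 70.9% in colon. Genes with under 3 UMIs in a medium could not be ranked at this depth.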
